A study of Mus musculus with 6 samples.

Results

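The 9 genes described here are the Hedgehog ligands Dhh, Shh and Ihh, the receptor Ptch1, the signal transducer Smo, the transcription factors Gli1, Gli2 and Gli3, and the ligand-binding inhibitor Hhip. They were taken by name from a list whose rule uses no level, although earlier results of these data were known when it was made, and all 9 of 9 were found among the 23073 genes of the expression files. Their RNA was measured by RNA-Seq of mouse diaphragm, the muscle sheet innervated by the phrenic nerve, at E14.75, late in embryonic life. There were 6 libraries in 3 groups of 2, which are named here by the numbers in their labels. Wild-type muscle (libraries 5 and 6) carried wild-type erbB3, the gene of a neuregulin receptor on which Schwann cells depend, and total RNA was taken from the whole muscle. Mutant muscle (libraries 1 and 2) was labelled erbB3 KO and described as without Schwann cells, and was prepared in the same way. Wnt1-Ribotag muscle (libraries 1 and 2) was wild-type for erbB3 and carried Wnt1-Cre with Ribotag, a ribosomal protein that gains a hemagglutinin tag in cells in which Cre has been active, so that antibody to the tag pulled down ribosome-bound RNA. Wnt1-Cre acts in the neural crest lineage as a whole and not in Schwann cells alone, and each Wnt1-Ribotag library pooled diaphragms of a litter. The question was whether loss of Schwann cells, a source of Dhh, could be seen in Ptch1, Gli1 and Hhip.

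Hedgehog ligands are secreted lipid-modified proteins that bind Ptch1. Free Ptch1 holds Smo inactive, and ligand binding releases Smo, which acts through the primary cilium to turn Gli2 and Gli3 from repressors into activators. Ptch1, Gli1 and Hhip are themselves transcribed in response to the signal, and their RNA is commonly read as its output. In peripheral nerve, Dhh made by Schwann cells is known to act on the surrounding mesenchyme, which forms the perineurium.

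The values are RPKM, reads scaled to gene length and to sequencing depth, which can be compared between genes. Depth was between 100178863 and 230216660 mapped reads, and a gene without reads carries a floor value instead of 0. Between 17205 and 20349 genes were above the floor. Erbb3 itself did not separate the genotypes, with an RPKM of 16.5 and 15.8 in wild-type and 21.5 and 11.9 in mutant muscle, and which part of the gene the mutant allele lacks is not given in the sources used here. The defining transcription factor of Schwann cells, Sox10, measured 2.89 and 2.16 RPKM in wild-type, 0.00854 and 0.0178 in mutant and 15.5 and 32.2 in Wnt1-Ribotag libraries, without overlap between any of the groups. By group means, mutant muscle had 0.521% as much Sox10 as wild-type (log2 fold change -2.55, SE 0.18, limma adjusted p = 0.00640). The summed RPKM of 10 Schwann lineage markers was 16.8 and 16.7 in wild-type, 5.25 and 4.15 in mutant, and 117 and 321 in Wnt1-Ribotag libraries. Across genes, Pearson's r between replicates was 0.990 in wild-type, 0.984 in mutant and 0.926 in Wnt1-Ribotag libraries. Since the number of animals behind a whole-muscle library is not given in the sources used here, p-values measure only the spread between these samples.

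The 3 ligands and Hhip were the lowest of the 9 genes in 5 of the 6 libraries, with Dhh the exception in Wnt1-Ribotag 2, while Smo was the highest in each library. Dhh (ENSMUSG00000023000, GRCm38 chr15:98891152-98898540, minus strand), the ligand of Schwann cells, Sertoli cells and endothelium, measured 0.476 RPKM (library 5) and 0.247 (6) in wild-type, 0.273 (1) and 0.150 (2) in mutant, and 0.549 (1) and 4.93 (2) in Wnt1-Ribotag muscle. The wild-type and mutant ranges overlapped, and both Wnt1-Ribotag libraries were above the other 4. Ihh (ENSMUSG00000006538, GRCm38 chr1:74945315-74951672, minus strand), the ligand of growing cartilage, had an RPKM of 0.0867 and 0.115 in wild-type and 0.0641 and 0.0458 in mutant muscle, and was 0.00696 in Wnt1-Ribotag 1 and at the floor in Wnt1-Ribotag 2. These 3 ranges did not overlap. Shh (ENSMUSG00000002633, GRCm38 chr5:28456815-28467256, minus strand), the ligand of epithelia, notochord and floor plate, was at the floor in 5 of 6 libraries, and in wild-type 6 its RPKM of 0.00166 was no higher than the floors elsewhere. Dhh and Ihh were thus the ligand genes with values above the floor in whole muscle.

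The receptor and the transcription factors were all well above the floor. Smo (ENSMUSG00000001761, GRCm38 chr6:29735503-29761365, plus strand), the membrane protein that passes the signal on, ranged from 36.9 to 69.4 RPKM over the 6 libraries. In wild-type muscle the order of mean RPKM was Smo (53.0 ± 1.40), Gli3 (7.35 ± 0.968), Gli2 (6.89 ± 0.577), Gli1 (2.94 ± 0.667), Ptch1 (2.51 ± 0.310), Dhh (0.361 ± 0.162), Hhip (0.232 ± 0.0731), Ihh (0.101 ± 0.0199) and Shh (SD, n = 2). The replicate ranges of Gli3 and Gli2, of Gli1 and Ptch1, and of Dhh and Hhip overlapped, although the order within each pair was the same in both wild-type libraries. In Wnt1-Ribotag 2, Dhh ranked 3 of the 9, above Gli2, Ptch1 and Gli1, whereas it ranked 6 in Wnt1-Ribotag 1 and in both wild-type libraries.

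**Figure D1:**
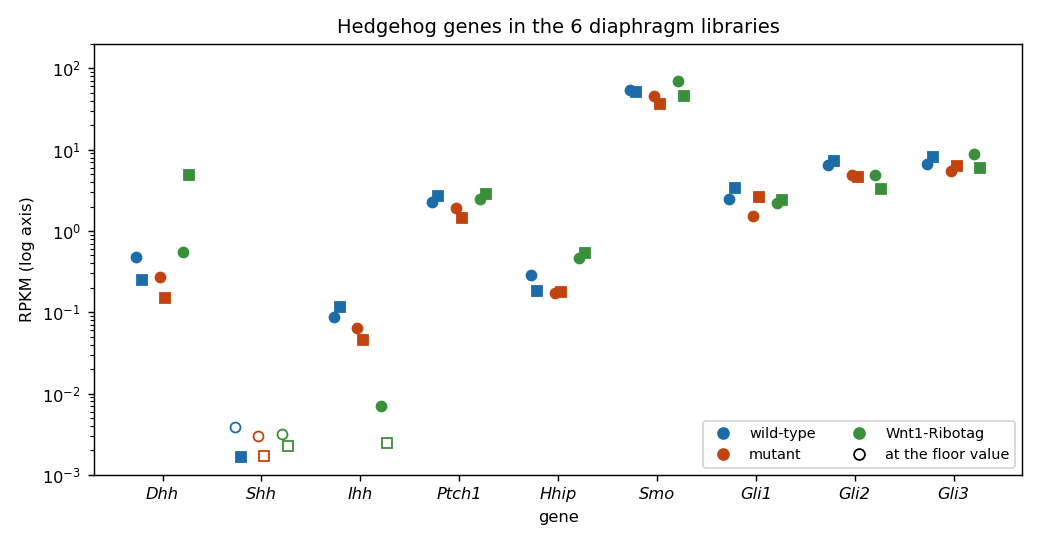
RPKM of the 9 Hedgehog genes (log axis) in wild-type, mutant and Wnt1-Ribotag diaphragm at E14.75, with circles for the lower-numbered library of a group, squares for the other and open symbols for values at the floor. Dhh in Wnt1-Ribotag 2 (4.93) stands far from the other 5 libraries (0.150 to 0.549), while Ptch1 stays between 1.45 and 2.85 and Gli1 between 1.55 and 3.41.

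Dhh was compared first between mutant and wild-type muscle. By group means, mutant muscle had 58.6% as much as wild-type, but single pairs of a mutant and a wild-type library ran from 31.6% to 111%, and mutant 1 was higher than wild-type 6. On the log2(RPKM + 0.5) scale used for all tests, the difference was -0.27. Dhh was not tested, because its mean over the 4 libraries was below the RPKM of 0.5 required. Without that filter, it had an adjusted p of 0.610 from limma (unadjusted p = 0.166). A loss of Dhh was thus not detectable against the spread of these libraries, in muscle in which Sox10 was at 0.521% of its wild-type level. In whole muscle, fewer cells of a type and less RNA per cell cannot be told apart. The summed RPKM of 6 endothelial markers, a cell type known to make Dhh, was 43.1 and 47.9 in wild-type and 48.2 and 37.8 in mutant muscle, and 0 of the 6 was called, that is, had a limma adjusted p under 0.05, against 0.171% of all genes tested. At an unadjusted p under 0.05 there were 2, Kdr (lower) and Emcn (higher), against 12.0% of all genes. The part of endothelium in the Dhh level was not tested.

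Dhh shares exon bases with neighbours. In the GENCODE annotation, 546 of the 4399 exon bases of Dhh (12.4%) are shared with Rhebl1, the gene of a small GTPase on the same strand, and 1107 (25.2%) with the antisense transcript Gm49442. The strand setting of the counting is not given in the sources used here, so reads of Dhh and its antisense partner cannot be told apart. Rhebl1 had an RPKM of 2.38 and 1.91 in wild-type, 2.55 and 2.24 in mutant and 2.89 and 1.70 in Wnt1-Ribotag libraries. Its level was above that of Dhh in every library but Wnt1-Ribotag 2, and it differed by 0.13 on the log2 scale between mutant and wild-type muscle (SE 0.17, limma adjusted p = 0.724). How much of the low Dhh value in wild-type and mutant muscle came from Rhebl1 was not tested.

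Ptch1 (ENSMUSG00000021466, GRCm38 chr13:63508328-63573598, minus strand), the ligand receptor and a target of the pathway, measured 2.29 RPKM (library 5) and 2.73 (6) in wild-type muscle, and 1.90 (1) and 1.45 (2) in mutant muscle. Both mutant libraries were below both wild-type libraries. The level by group means was 66.9% of wild-type, with pairs from 53.3% to 83.1%. The log2 fold change of Ptch1 was -0.47 (SE 0.18, 95% confidence interval from -0.88 to -0.06, unadjusted p = 0.0295), and it did not pass the threshold after adjustment over all genes (limma adjusted p = 0.390). Of the 14052 genes tested, 5.55% had a log2 fold change as low or lower.

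Gli1 (ENSMUSG00000025407, GRCm38 chr10:127329882-127341974, minus strand), the transcriptional activator whose RNA depends most on the signal, measured 2.47 RPKM (library 5) and 3.41 (6) in wild-type muscle, and 1.55 (1) and 2.64 (2) in mutant muscle. Mutant 1 was the lowest of the 4 libraries, but mutant 2 lay between the wild-type values, so the groups overlapped. Its mean level was 71.3% of wild-type, and pairs ran from 45.4% to 107%. The log2 fold change of -0.42 had an SE of 0.24 and a 95% confidence interval from -0.97 to 0.13 (limma adjusted p = 0.467). Of the exon bases of Gli1, 62 of 4995 (1.24%) are shared with Arhgap9 on the other strand and 265 (5.31%) with the antisense transcript Gm47200.

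Hhip (ENSMUSG00000064325, GRCm38 chr8:79965851-80058006, minus strand), which binds ligand at the cell surface and limits its reach, measured 0.284 RPKM (library 5) and 0.180 (6) in wild-type muscle, and 0.172 (1) and 0.177 (2) in mutant muscle. The mutant values were the lower ones, but wild-type 6 lay within 0.01 RPKM of both. Its mean level was 75.2% of wild-type, with pairs from 60.7% to 98.0%, and the difference was -0.11 on the log2 scale with the offset of 0.5. Hhip was below the filter and was not tested (without the filter, adjusted p = 0.649 from limma).

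Of these 3 targets, Ptch1 and Hhip were lower in mutant muscle without overlap, as were 35.9% of all genes above the floor in the 4 libraries, Gli1 overlapped, and neither of the 2 tested was called. After the libraries were scaled by the median of their gene ratios, Hhip overlapped too (0.278 and 0.169 in wild-type, 0.174 and 0.190 in mutant muscle), while Ptch1 did not (2.24 and 2.56 against 1.92 and 1.57). The confidence interval of Gli1 reached from a fall larger than that of any member to a small rise, so with 2 libraries in each group a change in Gli1 of the size measured could not be shown.

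The promoters of Dhh and of the targets Ptch1 and Hhip are shown because the question turns on these genes. Promoter windows of RefSeq on GRCm38.p6, from 250 bases before to 50 bases after the start, were matched for 7 of the 9 genes. Gli1 and Shh were not among them. The start used for Ptch1 is that of a transcript beginning 7863 bases inside the gene as bounded above, and not at its 5′ end. The windows shown, all on the minus strand and written 5′ to 3′, are chr15:98898491-98898790 for Dhh, chr13:63565686-63565985 for Ptch1 and chr8:80057959-80058258 for Hhip, with GC boxes (GGGCGG or its reverse complement CCGCCC) in capitals.
Dhh: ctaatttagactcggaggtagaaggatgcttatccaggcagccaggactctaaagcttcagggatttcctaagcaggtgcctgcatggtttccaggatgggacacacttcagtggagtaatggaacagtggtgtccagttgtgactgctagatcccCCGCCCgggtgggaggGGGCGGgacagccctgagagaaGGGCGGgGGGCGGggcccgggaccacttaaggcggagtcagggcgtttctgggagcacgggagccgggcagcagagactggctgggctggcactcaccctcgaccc
Ptch1: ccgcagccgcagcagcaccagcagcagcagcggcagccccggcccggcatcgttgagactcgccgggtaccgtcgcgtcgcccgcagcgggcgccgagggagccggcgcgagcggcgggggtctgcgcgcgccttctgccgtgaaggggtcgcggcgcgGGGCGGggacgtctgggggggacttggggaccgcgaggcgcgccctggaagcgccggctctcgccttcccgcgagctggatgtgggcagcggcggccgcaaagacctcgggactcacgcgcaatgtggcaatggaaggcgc
Hhip: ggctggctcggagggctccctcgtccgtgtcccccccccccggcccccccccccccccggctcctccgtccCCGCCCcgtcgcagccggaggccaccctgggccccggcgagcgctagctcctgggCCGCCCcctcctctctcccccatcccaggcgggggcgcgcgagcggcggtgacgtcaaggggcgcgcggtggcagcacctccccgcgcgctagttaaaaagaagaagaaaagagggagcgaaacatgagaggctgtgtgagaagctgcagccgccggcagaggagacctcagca
The Dhh window holds 4 GC boxes, that of Ptch1 1 and that of Hhip 2, and 35.7% of the 32851 promoters searched hold at least 1 on either strand. Those searched were all of the same length and did not cover every chromosome. The letters ACCACCC, the core of the sequence that Gli proteins bind, were found on either strand in 4.61% of the promoters searched and, among the 7 genes matched, in that of Gli2 alone. No match says only that these letters are not in the window.

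Gli2, Smo, Gli3 and Ihh also had lower values in both mutant libraries than in both wild-type libraries. Gli2, Smo and Gli3 did not pass the test, and Ihh was not tested. Gli2 (ENSMUSG00000048402, GRCm38 chr1:118834132-119053619, minus strand), the main activator of the Gli family, had an RPKM of 6.49 and 7.30 in wild-type and 4.83 and 4.67 in mutant muscle. These groups did not overlap, with 68.9% of the wild-type level in mutant muscle (log2 fold change -0.49, SE 0.14, unadjusted p = 0.00967, limma adjusted p = 0.309). Smo had an RPKM of 54.0 and 52.0 in wild-type and 46.2 and 36.9 in mutant muscle, or 78.4% of wild-type by group means (log2 fold change -0.36, SE 0.15, adjusted p = 0.410). Gli3 (ENSMUSG00000021318, GRCm38 chr13:15463235-15730026, plus strand), the main repressor, had an RPKM of 6.67 and 8.04 in wild-type and 5.54 and 6.33 in mutant muscle, or 80.7% of wild-type (adjusted p = 0.463). In neither gene did the groups overlap. Mutant muscle held 54.6% as much Ihh as wild-type, with pairs from 39.9% to 73.9%. Ihh was 20.3 and 61.7 times its floor, taken as 1 read, in wild-type and 19.6 and 24.7 times in mutant muscle, so few reads lie behind these values. It was below the filter and was not tested (without the filter, unadjusted p = 0.0270 and adjusted p = 0.501 from limma). The summed RPKM of 8 cartilage markers was 9.80 and 10.9 in wild-type and 6.25 and 5.89 in mutant muscle. The part of cartilage in the Ihh difference was not tested.

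Among the 5 members that passed the filter, 0 of 5 was called by limma, against 0.171% of all genes tested, and 3 of 5 had an unadjusted p under 0.05, against 12.0%. In 4 of the 5 the mutant values were lower without overlap, against 37.4% of all genes tested. Counting also the members below the filter, 8 exceeded the floor in each of the 4 libraries, and 6 of these 8 were lower without overlap, against 35.9% of all such genes. The median of the log2 fold changes was -0.42 over the 5 members and -0.10 over all genes tested. Since the median of all genes lay below 0, the members are also given relative to it. Their log2 fold changes less the median of all genes were -0.39 for Gli2, -0.37 for Ptch1, -0.32 for Gli1, -0.25 for Smo and -0.18 for Gli3. After the same scaling, 3 of the 5 (Ptch1, Smo and Gli2) were lower without overlap, against 23.2% of all genes tested.

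**Figure D2:**
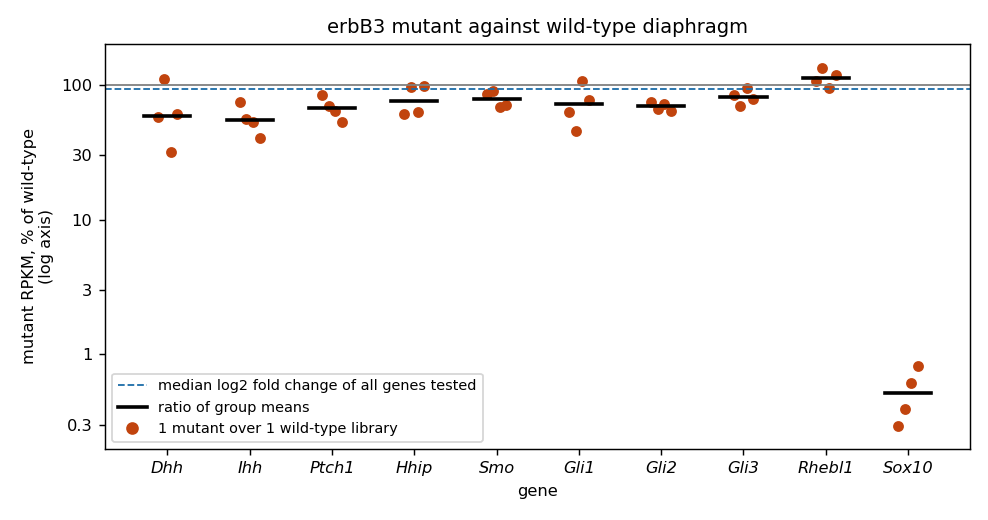
RPKM in mutant muscle as a percentage of wild-type (log axis) for 8 Hedgehog genes, the Dhh neighbour Rhebl1 and Sox10, with a point for each of the 4 pairs of a mutant and a wild-type library, a bar for the ratio of the group means and a dashed line at the median of all genes tested. The means of the Hedgehog genes lie between 54.6% and 80.7%, that of Sox10 at 0.521%, and among the Hedgehog genes only Dhh and Gli1 have a pair above 100%.

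Other markers moved with the genotype beside these genes. The summed RPKM of 8 hepatocyte markers was 512 and 157 in wild-type and 17.5 and 10.3 in mutant muscle, and 4 of these 8 genes were called lower, against 0.121% of all genes tested. The sum of 8 neuronal markers was 12.9 and 62.1 in wild-type and 8.62 and 11.3 in mutant muscle, with 0 called and 4 at an unadjusted p under 0.05, against 12.0% of all genes. Marker sums of muscle (1649 and 1364 against 2553 and 1229), connective tissue (2235 and 2195 against 2380 and 1733), mesothelium (145 and 131 against 152 and 139) and epithelium (22.9 and 21.0 against 18.4 and 23.6) overlapped between wild-type and mutant muscle. Their part in the values of the Hedgehog genes was not tested.

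The wider pathway was read from lists of 52 genes, chosen with earlier results of these data known. Among the 52 are 8 genes named for the perineurium, which are counted with the pathway genes but are not components of the pathway. Of the 52, 50 were matched in the files, the other 2 (1 of ligand release, 1 of the wider targets) were not analysed here, and 42 passed the filter in mutant vs. wild-type muscle. By limma, 0 of the 42 was called, against 0.171% of all genes, and 13 had an unadjusted p under 0.05, against 12.0%. In 27 the mutant libraries were lower without overlap and in 2 higher, against 37.4% and 12.7% of all genes tested, with a median log2 fold change of -0.27. After scaling by the median of gene ratios these counts were 23 and 5, against 23.2% and 23.8% of all genes. The median of the pathway genes was then -0.16, and -0.15 after quantile normalization, beside 0.004 over all genes tested in each case. With 1 library left out it ranged from -0.37 to -0.16.

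Genes that release ligand included Scube1 and Scube3, secreted carriers of Hedgehog. Scube1 had an RPKM of 2.41 and 3.76 in wild-type and 1.42 and 1.49 in mutant muscle (log2 fold change -0.85, SE 0.20, adjusted p = 0.198), and Scube3 had 5.23 and 7.34 against 3.59 and 3.59 (-0.71, adjusted p = 0.235). Both were lower in each pair without passing the test, while Hhat, which adds palmitate to the ligands, overlapped (1.53 and 1.58 against 1.71 and 1.06). Of 6 ligand-binding genes tested, 4 were lower without overlap, also after scaling, against 37.4% of all genes (23.2% after scaling), and 1 was higher without overlap, also after scaling, against 12.7% (23.8% after scaling). The higher one, named after its values were seen, was the endocytic receptor Lrp2 (1.26 and 1.30 RPKM in wild-type, 1.62 and 1.32 in mutant muscle, adjusted p = 0.686). The lower ones included the glypican Gpc3 (238 and 256 against 175 and 199, adjusted p = 0.390) and the co-receptor Cdon (29.6 and 31.4 against 26.3 and 19.1, adjusted p = 0.393), while the co-receptor Gas1 overlapped.

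Of 17 genes of signal transduction, all tested, 9 were lower without overlap and 7 after scaling, against the same 37.4% and 23.2%, with a median of -0.21 on the log2 scale beside -0.10 for all genes. This was nearer to 0 than the medians of ligand release (-0.43), ligand binding (-0.38), wider targets (-0.28) and perineurial genes (-0.28), a difference that was not tested. Prkaca, a catalytic subunit of protein kinase A, which holds Gli proteins in check, overlapped (111 and 98.8 in wild-type, 139 and 79.8 in mutant muscle), as did Csnk1a1 and Spop. Of 10 wider targets tested, 9 were lower without overlap and 7 after scaling, against the same 37.4% and 23.2%. Among them, Ccnd1, the cyclin D1 gene, had an RPKM of 17.8 and 27.5 in wild-type and 11.4 and 13.3 in mutant muscle (log2 fold change -0.82, adjusted p = 0.228), and Ccnd2 and the secreted Wnt inhibitor Sfrp1 were also lower without overlap (adjusted p = 0.391 and 0.370). Of the 8 genes named for the perineurium, 5 passed the filter. Without overlap, 3 of them were lower and 1 higher, also after scaling, against 37.4% and 12.7% of all genes (23.2% and 23.8% after scaling). Krt19, a keratin gene shared with epithelium and mesothelium, was the higher one (wild-type 9.43 and 8.46 RPKM, mutant 10.1 and 11.6). The tight junction gene Cldn1 overlapped. Both were named after their values were seen. Moxd1, on the perineurial list alone, had the lowest adjusted p of the genes on these lists. It had an RPKM of 4.56 and 6.05 in wild-type and 2.39 and 2.40 in mutant muscle (log2 fold change -0.99, adjusted p = 0.103). Slc2a1, a glucose transporter gene, had 19.5 and 20.6 against 13.9 and 10.7 (log2 fold change -0.70, adjusted p = 0.174), and Tjp1, also of tight junctions, had 17.6 and 19.7 against 16.8 and 14.4 (adjusted p = 0.473).

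**Figure D3:**
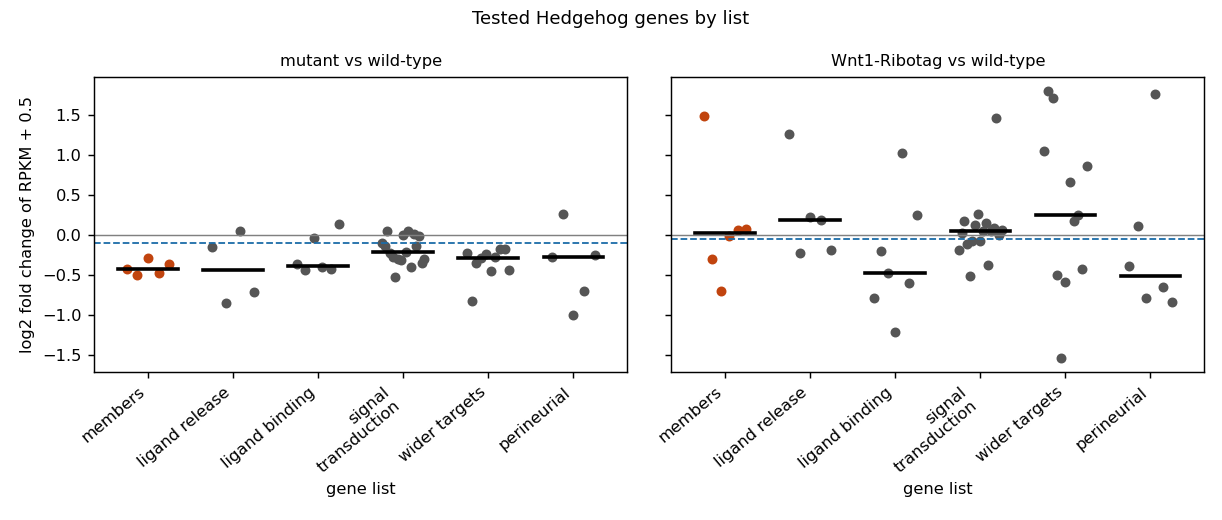
log2 fold changes of RPKM + 0.5 for each tested gene of the members and of 5 pathway lists, in mutant vs. wild-type (left) and Wnt1-Ribotag vs. wild-type (right), with bars at list medians and a dashed line at the median of all genes tested. In mutant muscle the members have a median of -0.42 and the pathway genes together -0.27, while in Wnt1-Ribotag libraries the pathway genes spread from -1.54 to 1.81.

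Wnt1-Ribotag libraries were then set beside wild-type muscle, to ask which of the genes were higher or lower in the RNA pulled down with tagged ribosomes. Preparation, input and alleles differ together here and cannot be told apart. The summed RPKM of muscle markers was 1556 and 1312 in Wnt1-Ribotag libraries, overlapping wild-type muscle, and that of hepatocyte markers was 259 and 182, so RNA of other tissues was present and a level in these libraries is not that of the Wnt1-Cre lineage alone. Dhh was 7.59-fold higher by the means, but pairs ran from 1.15-fold to 20.0-fold, since Wnt1-Ribotag 2 held 8.98 times as much Dhh as Wnt1-Ribotag 1. Dhh passed the filter only through Wnt1-Ribotag 2, so the test given here is the one made with no filter. Dhh had a log2 fold change of 1.48 (SE 0.92), with a 95% confidence interval from -1.22 to 4.18 (limma adjusted p = 0.533). It was 0.30 without Wnt1-Ribotag 2 and 2.67 without Wnt1-Ribotag 1. The difference between the replicates, 2.37 on the log2 scale, was reached by 151 of 14406 genes (1.05%). Schwann lineage and neuronal markers differed in the same direction between these 2 libraries, with sums of 117 and 321 and of 106 and 463 RPKM. Their part in the Dhh difference was not tested.

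**Figure D4:**
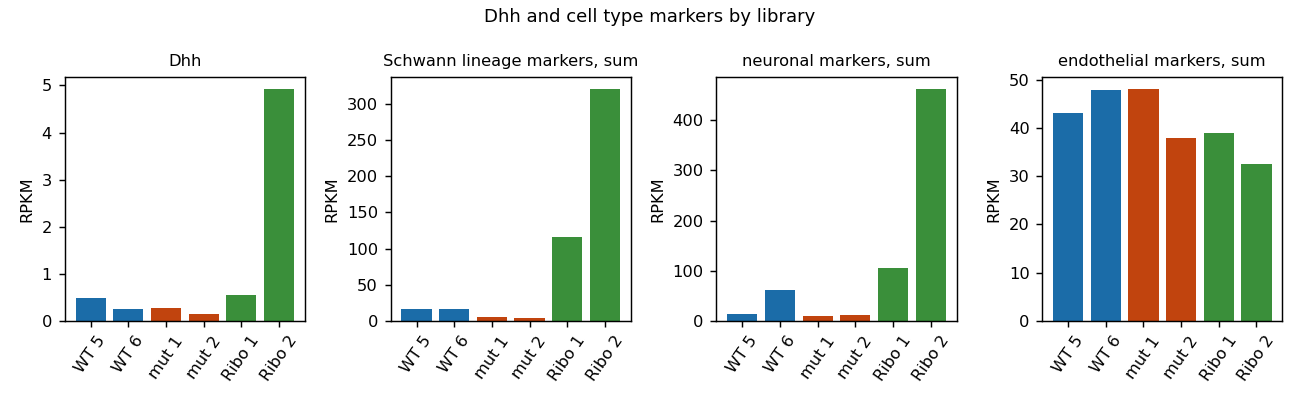
RPKM of Dhh and summed RPKM of the markers of Schwann lineage, neurons and endothelium in each library (WT, wild-type, mut, mutant, Ribo, Wnt1-Ribotag), with bars from 0. Dhh and the Schwann and neuronal sums are highest in Wnt1-Ribotag 2 (4.93, 321 and 463), while the endothelial sum lies between 32.5 and 48.2 in all 6 libraries.

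The targets differed less than Dhh between the Wnt1-Ribotag libraries. Ptch1 had an RPKM of 2.44 and 2.85 there, overlapping its wild-type values, though not after scaling by the median of gene ratios (2.65 and 2.76 against 2.27 and 2.61), and its log2 fold change was 0.06 (95% confidence interval from -0.52 to 0.65, adjusted p = 0.898). Gli1 had 2.18 and 2.38, both below wild-type, at 77.7% of its mean with pairs from 64.1% to 96.5% (log2 fold change -0.29, adjusted p = 0.549). Hhip had 0.460 and 0.529, which was 2.13-fold the wild-type mean (pairs 1.62-fold to 2.93-fold). Both Wnt1-Ribotag values of Hhip were above both wild-type values and above both mutant values. Hhip was below the filter, and without it the unadjusted p was 0.0222 and the adjusted p 0.214.

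Gli2 was lower in Wnt1-Ribotag libraries than in wild-type muscle, with an RPKM of 4.94 and 3.33, or 60.0% of the wild-type mean (log2 fold change -0.69, unadjusted p = 0.0351, adjusted p = 0.232). Without Wnt1-Ribotag 1, the log2 fold change was -0.95 (adjusted p = 0.0124), in a fit that takes its spread from the whole-muscle libraries alone, assumes that the lone library varies like them, and called 31.0% of all genes. The marker sums of mesothelium (85.6 and 65.0) and connective tissue (1676 and 1796) were also below those of wild-type muscle, and their part in the Gli2 difference was not tested. That of epithelium was 15.8 and 11.8. Smo had 69.4 and 45.3, on either side of the wild-type values (log2 fold change 0.08), and was called only without Wnt1-Ribotag 2 (0.39, adjusted p = 0.0413), where 41.8% of all genes were. Gli3 had 8.79 and 5.98, also on either side (-0.01, adjusted p = 0.986). Ihh was near or at the floor in both, and the cartilage marker sum was 9.41 and 14.4. Of the 5 members tested other than Dhh, 0 was called by limma, against 0.00694% of genes, and 1 had an unadjusted p under 0.05, against 19.5%. In 0 of these 5 Wnt1-Ribotag was higher without overlap and in 2 lower, against 23.3% and 31.0% of genes tested. Of the 7 members above the floor in all 4 libraries, with no filter on the level, 2 were higher and 2 lower without overlap in Wnt1-Ribotag libraries, against 22.8% and 30.8% of such genes.

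Wnt1-Ribotag and mutant libraries, both already used above, were also set side by side, and genotype and preparation differ together here. Dhh was 12.9-fold higher by the means (pairs 2.01-fold to 32.8-fold), or 1.75 on the log2 scale (SE 0.92, limma adjusted p = 0.461 without a filter, which Dhh again passed only through Wnt1-Ribotag 2). It was 0.57 without Wnt1-Ribotag 2 and 2.94 without Wnt1-Ribotag 1. Ptch1 was 1.58-fold higher (pairs 1.28-fold to 1.96-fold, log2 fold change 0.53, adjusted p = 0.360), and Hhip 2.83-fold (pairs 2.60-fold to 3.07-fold, untested, and with an adjusted p of 0.0967 without the filter). Neither overlapped. Gli1, Gli2, Gli3 and Smo overlapped between these groups, with log2 fold changes of 0.13, -0.20, 0.27 and 0.44, and Smo was called only without Wnt1-Ribotag 2 (0.74, adjusted p = 0.0476), as were 26.0% of all genes. Of the 5 members tested other than Dhh, 0 was called by limma, against 1.19% of genes, and 0 had an unadjusted p under 0.05, against 19.3%. Without overlap, 1 of these 5 was higher and 0 lower, against 29.7% and 24.4%. Of the 7 above the floor in all 4 libraries, 3 were higher and 0 lower without overlap, against 29.3% and 24.5% of such genes.

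Of the pathway lists, 2 genes passed the test in Wnt1-Ribotag vs. mutant, both higher, out of 44 tested, and 1.02% of all genes passed in that direction. Moxd1, of the perineurial list, had an RPKM of 12.8 and 28.2 against 2.39 and 2.40 (log2 fold change 2.75, adjusted p = 0.0310), and Ccnd1, of the wider targets, had 52.4 and 118 against 11.4 and 13.3 (2.63, adjusted p = 0.0374). Neither was called without a filter (adjusted p = 0.123 and 0.132) or after quantile normalization (0.0599 and 0.0648), and Moxd1 alone was called without a trend. Both were also above wild-type in both Wnt1-Ribotag libraries, where 0 of 45 pathway genes was called, against 0.00694% of all genes, and 13 had an unadjusted p under 0.05, against 19.5%. Gpc3 went the other way, with 112 and 101 RPKM in Wnt1-Ribotag libraries, the lowest of the 3 groups (adjusted p = 0.134 against wild-type). Moxd1 and Ccnd1 had the same order of groups as the Schwann lineage marker sums. These were 5.25 and 4.15 in mutant, 16.8 and 16.7 in wild-type, and 117 and 321 in Wnt1-Ribotag libraries, and their part was not tested.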

How the data were processed

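RNA was sequenced in 6 diaphragm libraries at E14.75, 2 in each group, and groups were taken from the titles and genotype labels. The Wnt1-Ribotag libraries are titled TOM1 and TOM2, a name the labels do not explain, and their genotype label gives Wnt1-Cre, Ribotag and wild-type erbB3. The authors deposited RPKM for each library, 23076 entries by Ensembl identifier of which 3 hold no value, with a mark for genes at a floor value. The processing notes name STAR and mm9. The counting program, its strand setting and the test behind the study's counts of changed genes are not given in the sources used here. The study names unpaired Student's t tests in its methods on RNA-Seq and quantitative PCR, and prints a p-value for the RPKM of fgl2. Read counts were not analysed. Depth came from the floors of microRNA genes, taken as 1 read. Among the members, reads could be estimated as multiples of the floor only for Ihh and Shh, so no counting intervals are given. Symbols, positions and overlaps were joined by identifier from GENCODE M21 on GRCm38 (21583 of 23073 matched), a later build than mm9, so no coordinate comes from the files.

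log2(RPKM + 0.5) was fitted with limma 3.58.1 (eBayes with trend, R 4.3.3), for genes whose RPKM averaged 0.5 or more in the 4 libraries compared, p-values adjusted by Benjamini-Hochberg and a threshold of 0.05, without a block. Fold changes on this scale understate changes of low genes. The fit was tested on simulated data. Tables and figures used Python 3.11.15, pandas 2.3.3, numpy 2.4.6 and matplotlib 3.10.9. The members and lists were chosen with earlier results of these data known. Of the pathway lists, genes past the threshold and the 3 with the highest mean RPKM of each were to be named, and of the marker lists the sums are given. Alternatives were other pseudocounts, filters and scalings, all 6 libraries in a fit, no trend, each library left out in turn, and a block by replicate number. Results for some listed genes are not reported here.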

Additional observations from a re-analysis of the deposited data

How the results depend on the processing

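No member was called in mutant vs. wild-type muscle under any alternative, and the log2 fold changes of Ptch1, Gli1, Gli2, Gli3, Smo, Dhh, Ihh and Hhip stayed below 0 in all of them. Leaving out 1 library at a time, Ptch1 ranged from -0.62 to -0.32, Gli1 from -0.73 to -0.12, Gli2 from -0.57 to -0.41, Gli3 from -0.41 to -0.16, Smo from -0.52 to -0.19, Dhh from -0.46 to -0.07 and Hhip from -0.22 to -0.01, and the genes called from 10 to 106. Dhh was -0.55 with a pseudocount of 0.1 and -0.76 with none, and Hhip -0.26 and -0.37. The genes called were 45 without a pseudocount, 0 without a filter and 0 with all 6 libraries.

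In Wnt1-Ribotag vs. wild-type the genes called were 2 without a pseudocount, 0 without a filter, 2 after median-of-ratios scaling and 138 with all 6 libraries, which also called 1 pathway gene. Without 1 library they ranged from 26 to 5965, members called from 0 to 2 and pathway genes from 0 to 18, where Ptch1 ranged from -0.041 to 0.17, Smo from -0.22 to 0.39, Gli3 from -0.27 to 0.25 and Dhh from 0.30 (without Wnt1-Ribotag 2, through which alone it passed the filter) to 2.67. Dhh was 1 of the 2 members called without Wnt1-Ribotag 1. Gli3 was 0.059 after median-of-ratios scaling. In Wnt1-Ribotag vs. mutant the genes called were 112 without a filter, 83 after quantile normalization and 692 with all 6 libraries, and the pathway genes called 0, 0 and 5, with 1 without a trend. Without 1 library, genes called ranged from 112 to 3672, members from 0 to 1 (Dhh without Wnt1-Ribotag 1, Smo without Wnt1-Ribotag 2), pathway genes from 2 to 13, Dhh from 0.57 (without Wnt1-Ribotag 2, filter as above) to 2.94, Gli1 from -0.18 to 0.44 and Gli2 from -0.45 to 0.052. In both comparisons, a fit without Wnt1-Ribotag 1 or 2 leaves a lone library in that group and takes its spread from whole muscle. The Dhh calls thus rest on Wnt1-Ribotag 2, through which alone Dhh passed the filter. No conclusion is drawn from calls made in these fits. In Wnt1-Ribotag vs. mutant, Gli1 was -0.10 after quantile normalization. The cause of these shifts was not tested.

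With a replicate block in Wnt1-Ribotag vs. mutant, 842 of 14325 genes and 7 of 44 pathway genes were called. Same-numbered libraries deviated together with a correlation of 0.168 over 14325 genes, and with only 2 pairs they share no more than a number. No paired analysis was possible for the other comparisons because their groups share no replicate numbers in the labels. The study sets numbered wild-type and mutant libraries side by side, but the sources used here do not tie those numbers to wild-type 5 and 6. Depth limits Shh, which was at or near the floor in all 6 libraries, and Ihh. Ihh was near or at the floor in Wnt1-Ribotag libraries and 19.6 to 61.7 times the floor in whole muscle.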

Other observations

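The profiles of Dhh, Ptch1 and Hhip over the 6 libraries were compared with those of all genes whose RPKM averaged 0.5 or more, by the root mean square difference of centred log2(RPKM + 0.5) values. The libraries share groups, so these are descriptions of 6 points. The profile most like that of Dhh was that of Cmtm5 (0.147), which had an RPKM of 11.5 in Wnt1-Ribotag 2 and between 1.26 and 1.97 in the other 5 libraries. It was followed by Sostdc1, the microRNA gene Mir24-2, Nlrp6 and Tm4sf4, at 0.206 to 0.245. All were highest in Wnt1-Ribotag 2, which follows from their choice by likeness to Dhh. Mir24-2, Nlrp6 and Tm4sf4 averaged 0.5 or more only through that library. Nearest to Ptch1 were Auts2 (0.0425), Zfp362, Atat1, Fam222a and Src, and nearest to Hhip Pea15a (0.0412), Ybey, Ccdc191, Phkg2 and Zfp786. None of these genes is on the pathway lists.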
